A study of Homo sapiens with 19 samples.

Results

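The 9 genes C3, C1R, C1S, CFB, CFI, CD46, CD55, CD59 and SERPING1 encode components and regulators of the complement system. They were taken by symbol from a deposited table of raw RNA sequencing counts with 23367 genes, and all 9 had a row and were expressed highly enough to be tested. The table holds 19 libraries of SHEP TET21N, a human neuroblastoma line without amplified MYCN that carries a MYCN transgene repressed by doxycycline. MYCN-high cells were grown without doxycycline and MYCN-low cells with it. Both were sampled untreated, after 72 h of doxorubicin at 0.1 µg/ml, and at 3, 8 and 14 days after the drug had been washed out. Doxorubicin is a topoisomerase poison that breaks DNA. Each of the 10 groups had biological duplicates, library B and library C, except MYCN-low cells at 14 days, which had library B alone.

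The states compared are those of 1 line, so MYCN itself and doxycycline in the medium cannot be told apart. No untreated cells were sampled at the later times, so the drug and time in culture cannot be told apart either. In bulk RNA, fewer cells that express a gene and less of its RNA per cell also cannot be told apart.

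Complement is a cascade of plasma proteins that tags cells for removal and can perforate their membranes. In the classical pathway C1q binds a target and activates the proteases C1r and C1s, which cleave C4 and C2 to form an enzyme that splits C3. In the alternative pathway C3b pairs with factor B (CFB) to form a second enzyme of that kind, which amplifies the deposit. C1 inhibitor (SERPING1), factor I (CFI) and the membrane proteins CD46, CD55 and CD59 hold the cascade back in plasma or on a cell's own surface. The liver makes most plasma complement, and fibroblasts and many mesenchymal tumour cells also transcribe C1R, C1S, C3 and CFB. Interferons, interleukin 1 and interleukin 6 are known inducers of these genes.

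The libraries held 16530112 to 27638012 counts in genes. Levels are given as CPM, the counts scaled to the size of the library, after TMM scaling, and differences as log2 fold changes with a standard error from edgeR. A difference was called at an adjusted p under 0.05. MYCN stood at 594 to 1420 CPM in MYCN-high libraries and at 13.5 to 30.7 CPM in MYCN-low libraries. CDKN1A, a p53 target that doxorubicin induces, stood at 1190 and 1040 CPM in MYCN-high cells at 72 h, against 23.5 and 22.9 CPM untreated. Marker lists described the cultures. All 6 mesenchymal markers were detected, and their sum was 1610 to 2520 CPM in MYCN-high libraries and 4270 to 14100 CPM in MYCN-low libraries, and the group means of VIM and FN1, in CPM, were lower in MYCN-high cells at every time. The members did not all go one way, since PRRX1 averaged 206 CPM in untreated MYCN-high cells, against 145 CPM in untreated MYCN-low cells, and CD44 averaged 644 CPM in MYCN-high cells at 72 h, against 510 CPM in MYCN-low cells. The part of VIM and FN1 in the differences below was not tested. The 7 adrenergic neuroblastoma markers summed to 104 to 332 CPM in MYCN-high libraries and to 50.6 to 132 CPM in MYCN-low libraries, nearly all of it HAND2 (46.0 to 325 CPM over all libraries). ISL1 and GATA3 were detected in every library at 6.34 CPM or less, PHOX2A was at 0 in all 19, and TH was at 0 in 18. The 6 hepatocyte markers summed to 0.185 to 3.61 CPM in MYCN-high libraries and to 0.498 to 3.74 CPM in MYCN-low libraries, most of it SERPINA1, with TTR at 0 in 18 libraries and ALB at no more than 0.306 CPM. SERPINA1 averaged 0.263 CPM untreated, 3.45 CPM at 72 h, 2.00 CPM at 3 days, 0.464 CPM at 8 days and 0.360 CPM at 14 days in MYCN-high cells. It was thus highest there at 72 h and 3 days, as C3 and CFB were. At 8 days C3 and CFB still averaged 6.44 and 3.26 CPM in these cells, against 0.118 and 0.738 CPM untreated. The 7 myeloid markers summed to 5.24 to 54.5 CPM in MYCN-high libraries and to 23.3 to 81.4 CPM in MYCN-low libraries. Most of that sum was CD68, which many cell types express, while TYROBP was at 0 in 17 libraries and CD14 in 12. CD68 averaged 13.1 CPM untreated, 51.5 CPM at 72 h, 23.6 CPM at 3 days, 12.5 CPM at 8 days and 7.45 CPM at 14 days in MYCN-high cells, and ITGAM averaged 0.714 CPM there at 72 h, against 0 untreated. PTPRC averaged 0.0199 CPM in untreated MYCN-low cells and stood at 2.04 CPM in their library at 14 days. The part of these markers in the levels of C3 and CFB was not tested. The pair of untreated MYCN-low libraries was the least alike, with 2647 genes more than 2-fold apart, against 1103 to 1664 in the other 8 pairs. Scaling by the ERCC spike-in RNAs, whose share ran from 0.0116 to 0.537% of all counts, moved the median of all genes by -1.44 to 2.51 log2 units. Of 66 called differences of the 9 genes, 7 changed sign under that scaling. None did relative to that median, but subtracting the median largely removes the scaling, so this is no check against it.

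C1R, C1S, SERPING1 and CD59 separated the states completely. Every one of the 10 MYCN-high libraries lay below every one of the 9 MYCN-low libraries, whatever the time. This held for 4 of the 9 genes and for 5.66% of the 14793 genes tested. None of the 9 lay wholly above, where 6.61% of all genes tested did. Separation was examined in TMM-scaled CPM alone. Under ERCC scaling the fitted differences of C1S and CD59 between the states changed sign at 72 h and 3 days.

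At each time more of the genes were called lower in MYCN-high cells than higher. Untreated, 6 of 9 were called, all lower, where 35.1% of all genes tested were called. After 72 h of doxorubicin 5 were called, 4 lower and CD55 higher, against 29.9% of all genes. At 3 days 5 were called lower, against 31.8% of all genes. At 8 days 7 were called lower, against 43.9%, and at 14 days 7 were called lower, against 41.8%. All these shares count both directions. Of all genes, 18.6% were called lower untreated, 14.4% at 72 h, 14.8% at 3 days, 20.5% at 8 days and 20.5% at 14 days. The median of the 9 log2 fold changes was -2.64 untreated, -0.68 at 72 h, -0.93 at 3 days, -2.14 at 8 days and -4.02 at 14 days. The median over all genes tested lay between -0.044 and 0.042 in these 5 comparisons. At 72 h the count was 3 without library C of either state.

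Over time, calls were most frequent early in MYCN-high cells, and in MYCN-low cells late, the second depending on the filter on low counts. In MYCN-high cells 6 of 9 genes were called higher at 72 h than untreated, against 36.2% of all genes called, and 7 were called higher at 3 days, against 30.8%. At 8 days 3 were called higher and 1 lower, against 8.58%. At 14 days edgeR called 0 of 9 and 0% of all genes, while 1 of 9 and 1245 of all genes had an unadjusted p under 0.05, and DESeq2 called 0 of 9 and 68 of all genes. In MYCN-low cells the counts called higher ran the other way, with 2 at 72 h against 22.3% of all genes, 3 at 3 days against 23.2%, 4 at 8 days against 24.9% and 5 at 14 days against 18.4%. All these shares count both directions. In MYCN-high cells 18.3% of all genes were called higher at 72 h, 15.1% at 3 days and 4.49% at 8 days. In MYCN-low cells 10.2% were called higher at 72 h, 10.5% at 3 days, 10.2% at 8 days and 7.63% at 14 days. With no filter the MYCN-low counts were 5 at 72 h, 5 at 3 days, 5 at 8 days and 6 at 14 days. That setting called 3780, 3899, 4116 and 3262 of all genes at these times, counting both directions. All 4 calls at 8 days in MYCN-high cells were lost when any 1 of their 4 libraries was left out, and the 7 at 3 days became 4 without untreated MYCN-high library C.

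The direct test of whether the responses of MYCN-high and MYCN-low cells differed called 1 gene at 72 h (CD59), where 10.7% of all genes were called. It called 1 at 3 days (CFB), against 7.58%, then CD46 and CD55 at 8 days, against 6.35%, and 1 at 14 days (C1S), against 7.41%. The values are given with each gene below.

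**Figure D1:**
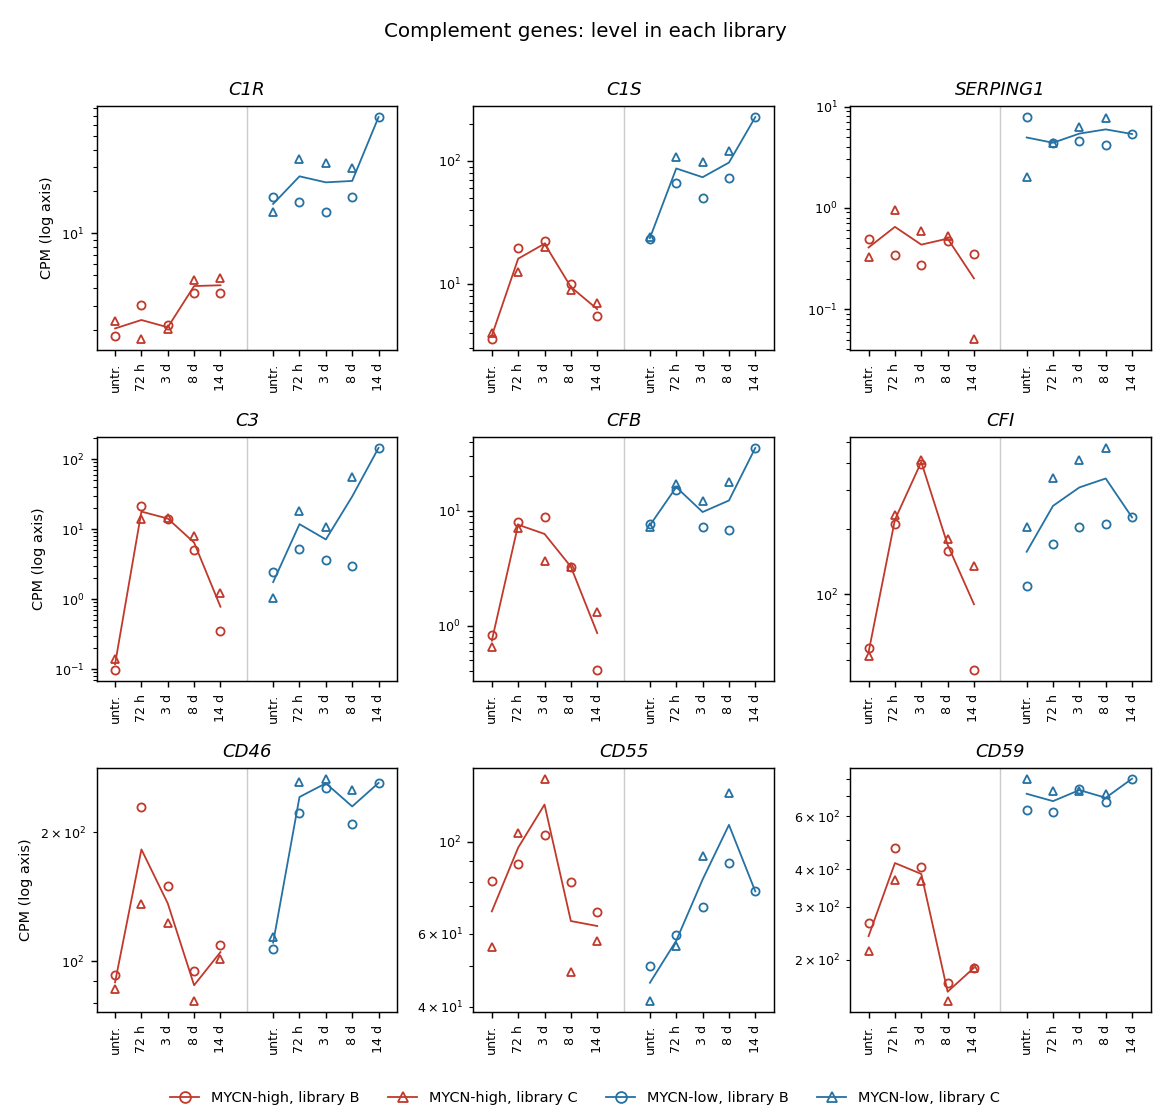
Level of each of the 9 genes in every library, in CPM on a log axis that differs between panels, by sampling time. Circles are library B, triangles library C and lines join group means, with MYCN-high cells on the left of each panel and MYCN-low cells on the right. C1R, C1S, SERPING1 and CD59 do not overlap between the states, and C3 spans 0.0975 to 21.5 CPM in MYCN-high cells and 1.04 to 145 CPM in MYCN-low cells.

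Both proteases of the first step of the classical pathway were called lower in MYCN-high cells at all 5 times with TMM scaling. Under ERCC scaling neither was called untreated, at 72 h, at 3 days or at 8 days, and at 14 days they were not both called. C1R kept its sign under it, with -0.78 at 72 h, and C1S changed sign at 72 h and 3 days. C1R encodes the protease that activates itself inside the C1 complex and then cleaves C1s. In MYCN-high libraries B and C it stood at 1.80 and 2.31 CPM untreated, 3.01 and 1.72 CPM at 72 h, 2.17 and 2.02 CPM at 3 days, 3.72 and 4.59 CPM at 8 days, and 3.69 and 4.73 CPM at 14 days. MYCN-low libraries held it at 18.2 and 14.3 CPM untreated, 16.9 and 34.5 CPM at 72 h, 14.3 and 32.2 CPM at 3 days, 18.1 and 29.5 CPM at 8 days, and 68.7 CPM in the single library at 14 days. The lowest MYCN-low library, at 14.3 CPM, lay above the highest MYCN-high library, at 4.73 CPM. The log2 fold change of MYCN-high over MYCN-low cells was -2.97 ± 0.44 untreated (adjusted p = 0.000167), -3.43 ± 0.44 at 72 h, -3.47 ± 0.45 at 3 days, -2.52 ± 0.42 at 8 days and -4.02 ± 0.47 at 14 days. Against untreated cells C1R was not called at any of the 4 later times in MYCN-high cells, with log2 changes of 0.21 ± 0.46 at 72 h, 0.025 ± 0.47 at 3 days, 1.01 ± 0.44 at 8 days and 1.03 ± 0.45 at 14 days, the last of which became -0.055 under ERCC scaling. The single library at 14 days was called higher than untreated MYCN-low cells, by 2.08 ± 0.45 (adjusted p = 0.00511), with its error borrowed from the other groups.

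C1R has more than 1 start in the RefSeq table of promoters on GRCh38.p14, and the 250 bases before 2 of them are shown because C1R, next to C1S on chromosome 12, was called in every comparison of the states. The first is chr12:7092446-7092695 and the second chr12:7091894-7092143, both on the minus strand. Capitals mark matches to motifs of factors that carry inflammatory signals, searched on both strands. TTGCNNAA, bound by C/EBP proteins, occurs at -106 in the first and at -167 in the second, and TTCNNNGAA, bound by STAT proteins, at -86 in the second. A match describes the letters and shows no binding. Of 35116 promoters of that length, 9.05% hold TTGCNNAA and 6.57% hold TTCNNNGAA.
C1R, first start: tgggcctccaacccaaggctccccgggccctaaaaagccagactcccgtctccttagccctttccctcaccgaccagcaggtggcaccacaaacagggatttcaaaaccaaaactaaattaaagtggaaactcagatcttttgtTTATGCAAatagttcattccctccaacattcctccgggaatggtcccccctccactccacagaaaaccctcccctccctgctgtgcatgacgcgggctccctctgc
C1R, second start: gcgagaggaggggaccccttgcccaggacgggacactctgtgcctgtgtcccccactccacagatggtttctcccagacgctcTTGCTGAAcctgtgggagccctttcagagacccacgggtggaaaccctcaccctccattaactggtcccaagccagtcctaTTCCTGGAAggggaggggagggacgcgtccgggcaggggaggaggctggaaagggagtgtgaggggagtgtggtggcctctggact

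C1S encodes the protease that C1r activates and that cleaves C4 and C2. MYCN-high libraries held it at 3.56 and 4.03 CPM untreated, 19.7 and 12.4 CPM at 72 h, 22.4 and 20.1 CPM at 3 days, 10.0 and 8.91 CPM at 8 days, and 5.50 and 7.00 CPM at 14 days. Its level in MYCN-low libraries was 23.0 and 24.2 CPM untreated, 65.7 and 108 CPM at 72 h, 49.7 and 97.7 CPM at 3 days, 72.9 and 121 CPM at 8 days, and 227 CPM at 14 days. The highest MYCN-high library, at 22.4 CPM at 3 days, lay just below the lowest MYCN-low library, at 23.0 CPM untreated. Unlike C1R, C1S was called higher than untreated at 72 h in both states, by 2.08 ± 0.36 in MYCN-high cells (adjusted p = 0.000321) and by 1.88 ± 0.33 in MYCN-low cells (adjusted p = 0.000696). In MYCN-high cells the rise was 2.49 ± 0.36 at 3 days and 1.32 ± 0.36 at 8 days (adjusted p = 0.0344), and at 14 days the value was 0.72 ± 0.36 and not called. In MYCN-low cells the rise was 1.64 ± 0.33 at 3 days, 2.04 ± 0.33 at 8 days and 3.27 ± 0.38 at 14 days. The responses differed at 14 days, by -2.54 ± 0.52 for MYCN-high minus MYCN-low cells (adjusted p = 0.0117). Between the states C1S was lower in MYCN-high cells at all 5 times, by -2.64 ± 0.36 untreated, -3.36 ± 0.35 at 8 days and -5.18 ± 0.40 at 14 days. The values at 72 h and 3 days, -2.43 ± 0.33 and -1.79 ± 0.33, turned to 0.25 and 0.30 under ERCC scaling, where the median of all genes moved by 2.51 and 1.82.

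The ratio of C1S to C1R counts is taken within a library, so scaling between libraries plays no part in it. MYCN-high cells had 1.97 and 1.74 C1S counts per C1R count untreated, 6.54 and 7.22 at 72 h, 10.3 and 9.97 at 3 days, 2.69 and 1.94 at 8 days, and 1.49 and 1.48 at 14 days. MYCN-low cells had 1.26 and 1.69 untreated, 3.89 and 3.12 at 72 h, 3.46 and 3.03 at 3 days, 4.03 and 4.09 at 8 days, and 3.31 at 14 days. The ratio in MYCN-high cells stood above that in MYCN-low cells without overlap untreated, at 72 h and at 3 days, and below it at 8 and 14 days. Untreated the gap was narrow (1.74 against 1.69). The MYCN-high ratios at 72 h and 3 days rest on 34 to 71 C1R counts per library. Both counts could hold reads of a neighbour, since C1R overlaps C1RL and C1S overlaps LPCAT3 in the GENCODE annotation and the strand setting of the counting is not given in the sources used here.

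**Figure D2:**
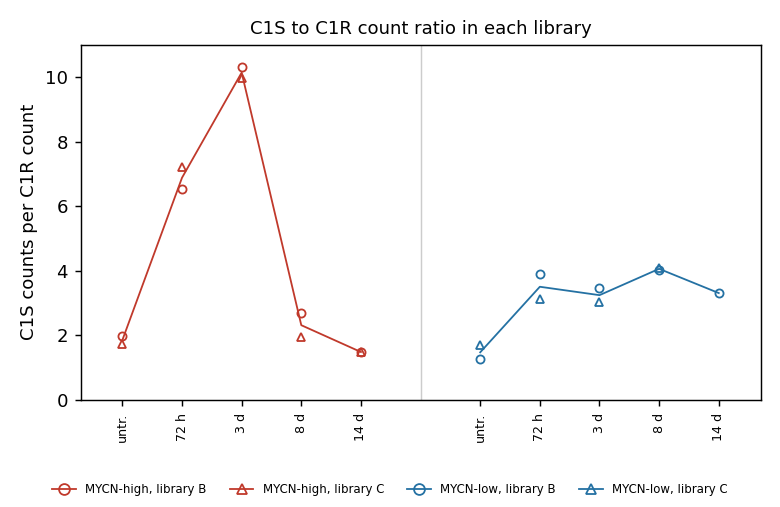
C1S counts per C1R count in each library, on a linear axis from 0, by time, with MYCN-high cells on the left and MYCN-low cells on the right. Lines join group means, and the MYCN-high ratio is 9.97 and 10.3 at 3 days and 1.48 and 1.49 at 14 days.

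SERPING1 encodes C1 inhibitor, which inactivates both proteases. Its level was low, at 0.0504 to 0.957 CPM over the 10 MYCN-high libraries and at 2.03 to 7.86 CPM over the 9 MYCN-low libraries. In MYCN-high libraries B and C these were 0.487 and 0.324 CPM untreated, 0.339 and 0.957 CPM at 72 h, 0.272 and 0.593 CPM at 3 days, 0.465 and 0.527 CPM at 8 days, and 0.351 and 0.0504 CPM at 14 days. In MYCN-low libraries they were 7.86 and 2.03 CPM untreated, 4.38 and 4.39 CPM at 72 h, 4.53 and 6.27 CPM at 3 days, 4.17 and 7.72 CPM at 8 days, and 5.35 CPM at 14 days. The widest MYCN-low pair was thus the untreated one, and no MYCN-high library reached any MYCN-low library. MYCN-high cells were lower at all 5 times, by -3.58 ± 0.71 untreated (adjusted p = 0.00142), -2.77 ± 0.67 at 72 h (adjusted p = 0.00586), -3.64 ± 0.72 at 3 days, -3.58 ± 0.70 at 8 days and -4.75 ± 0.87 at 14 days. The call at 72 h was lost without MYCN-high library B (-2.20, adjusted p = 0.0588). No time differed from untreated cells by the test in either state, with log2 changes between -1.05 and 0.65 in MYCN-high cells and between -0.16 and 0.28 in MYCN-low cells. In MYCN-high cells these rest on few counts, and the exact 95% counting interval of the ratio to untreated cells was 0.825 to 3.04 at 72 h and 0.165 to 1.19 at 14 days.

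C3, the protein on which all routes of complement converge, had the widest range of the 9 genes. Its level in MYCN-high libraries was 0.0975 and 0.139 CPM untreated, which is 2 and 3 counts, then at 21.5 and 14.2 CPM at 72 h, 14.1 and 14.3 CPM at 3 days, 4.97 and 7.91 CPM at 8 days, and 0.351 and 1.21 CPM at 14 days. In MYCN-low libraries it stood at 2.47 and 1.04 CPM untreated, 5.21 and 18.4 CPM at 72 h, 3.67 and 10.6 CPM at 3 days, 3.00 and 55.7 CPM at 8 days, and 145 CPM at 14 days. The MYCN-high course went up and came back towards its start, while the highest MYCN-low library was the last. MYCN-high libraries had 152 times their untreated level at 72 h (exact 95% counting interval 64.8 to 469), 120 times at 3 days (51 to 370), 53.5 times at 8 days (22.6 to 166) and 6.84 times at 14 days (2.63 to 22.6). These intervals cover counting error only. With the spread between libraries, C3 was called higher at 72 h (7.16 ± 1.41, adjusted p = 0.001), 3 days (6.83 ± 1.42, adjusted p = 0.00207) and 8 days (5.69 ± 1.46, adjusted p = 0.0269), and not at 14 days (2.69 ± 1.87, adjusted p = 0.736).

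In MYCN-low cells C3 was called higher at 8 days, by 4.11 ± 1.00 (adjusted p = 0.00781), and at 14 days, by 6.40 ± 1.13 (adjusted p = 0.00158). The first rests on library C, since without it the value was 0.82 (adjusted p = 0.511). It was also lost without untreated MYCN-low library C (3.60, adjusted p = 0.0502). At 72 h the value of 2.79 ± 0.98 was not called by edgeR with the filter (adjusted p = 0.0535). DESeq2's Wald test called it (2.74, adjusted p = 0.0467), as did edgeR with no filter on low counts (2.77, adjusted p = 8.32e-19). At 3 days the value of 2.05 ± 0.99 was not called (adjusted p = 0.146), but it was with no filter (2.03, adjusted p = 3.84e-10). Between the states only the 14-day difference was called by edgeR with the filter, at -7.49 ± 1.22 (adjusted p = 0.000202) and with 1 MYCN-low library. At 72 h the difference was 0.59 ± 0.85 and at 3 days 1.00 ± 0.87, where both MYCN-high libraries lay above both MYCN-low libraries. Neither was called, but the second was with no filter on low counts (0.98, adjusted p = 0.00159). Untreated, MYCN-high cells had 0.0723 times the MYCN-low level (exact 95% counting interval 0.0228 to 0.177), a difference of -3.78 ± 1.65 that edgeR did not call (adjusted p = 0.0892) and DESeq2 did (adjusted p = 0.00815). At 8 days the difference of -2.20 ± 0.89 (adjusted p = 0.0558) turned to 1.06 without MYCN-low library C. It was called without MYCN-low library B (-3.17, adjusted p = 0.00186), with DESeq2's size factors (adjusted p = 0.0495) and with no filter (adjusted p = 1.43e-15). The responses were 4.37 ± 1.88 apart at 72 h and 4.78 ± 1.88 apart at 3 days for MYCN-high minus MYCN-low cells. Neither was called by edgeR with the filter (adjusted p = 0.139 and 0.134). DESeq2's Wald test called both (adjusted p = 0.0438 and 0.034), as did edgeR with no filter (adjusted p = 1.91e-12 and 9.86e-15).

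CFB encodes factor B, the protease of the alternative pathway. In MYCN-high libraries it stood at 0.829 and 0.648 CPM untreated, 8.06 and 7.08 CPM at 72 h, 8.91 and 3.68 CPM at 3 days, 3.25 and 3.27 CPM at 8 days, and 0.410 and 1.31 CPM at 14 days. MYCN-low libraries held it at 7.75 and 7.22 CPM untreated, 15.1 and 17.1 CPM at 72 h, 7.24 and 12.3 CPM at 3 days, 6.83 and 17.8 CPM at 8 days, and 35.4 CPM at 14 days. Treated MYCN-high cells at 72 h thus reached the level of untreated MYCN-low cells. CFB was called higher than untreated in MYCN-high cells at 72 h (3.35 ± 0.55, adjusted p = 0.000241), 3 days (3.09 ± 0.56, adjusted p = 0.000791) and 8 days (2.14 ± 0.56, adjusted p = 0.0303), and in MYCN-low cells at 14 days (2.24 ± 0.52, adjusted p = 0.00839). In MYCN-low cells at 72 h the value of 1.11 ± 0.45 was not called (adjusted p = 0.0939), but it was with no filter on low counts (1.09, adjusted p = 0.00342). The responses differed at 3 days, by 2.71 ± 0.72 for MYCN-high minus MYCN-low cells (adjusted p = 0.0341). That call was lost without any 1 of 5 of the 8 libraries, both untreated MYCN-high libraries among them. At 72 h the responses were 2.24 ± 0.71 apart, which this fit did not call (adjusted p = 0.0548). DESeq2's Wald test called that difference (adjusted p = 0.0149). So did edgeR with a library-letter block (adjusted p = 0.0491) and with no filter on low counts (adjusted p = 8.65e-05).

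Between the states CFB was lower in MYCN-high cells untreated (-3.33 ± 0.55, adjusted p = 0.000387), at 8 days (-1.92 ± 0.48, adjusted p = 0.00414) and at 14 days (-5.33 ± 0.60, adjusted p = 1.39e-05). The call at 8 days was lost without MYCN-low library C (-1.10, adjusted p = 0.0982). At 72 h and 3 days the differences were -1.09 ± 0.45 (1.49 under ERCC scaling) and -0.63 ± 0.46 and not called. CFB overlaps C2 in the annotation, and C2 averaged 0.145 CPM over all libraries.

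The 250 bases before the start of CFB, chr6:31945845-31946094 on the plus strand of GRCh38.p14, are shown because CFB was called both between the states and after the drug. Capitals mark TTCNNNGAA at -92 and GAAANNGAA, the core of an interferon response element, at -139 on the other strand. The shares of all promoters holding them are 6.57% and 6.88%.
CFB: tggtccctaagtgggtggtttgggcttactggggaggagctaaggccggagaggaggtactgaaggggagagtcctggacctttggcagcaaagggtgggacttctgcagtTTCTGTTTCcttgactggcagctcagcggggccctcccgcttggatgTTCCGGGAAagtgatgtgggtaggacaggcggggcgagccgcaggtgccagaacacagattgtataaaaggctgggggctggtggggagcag

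CFI encodes factor I, the protease that cuts C3b and C4b once a cofactor holds them. MYCN-high libraries held it at 56.5 and 52.1 CPM untreated, 209 and 230 CPM at 72 h, 397 and 410 CPM at 3 days, 157 and 180 CPM at 8 days, and 45.0 and 135 CPM at 14 days. Its level in MYCN-low libraries was 109 and 204 CPM untreated, 169 and 339 CPM at 72 h, 203 and 414 CPM at 3 days, 210 and 468 CPM at 8 days, and 225 CPM at 14 days. Replicates were tight in MYCN-high cells up to 8 days, and about 2-fold apart in MYCN-low cells at every time with both. CFI was called higher than untreated in MYCN-high cells at 72 h (2.02 ± 0.50, adjusted p = 0.00518) and 3 days (2.89 ± 0.52, adjusted p = 0.000725). By this fit it was called at no time in MYCN-low cells, where the log2 changes were 0.52 to 1.11, although the change at 8 days was called with no filter on low counts (1.14, adjusted p = 3.4e-07). The difference between the responses was 1.92 ± 0.69 at 3 days (adjusted p = 0.102). Between the states it was called by this fit untreated alone, at -1.53 ± 0.49 (adjusted p = 0.0252). That call was lost without any 1 of 3 of the 4 libraries, the exception being MYCN-low library B.

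The promoter of CFI, chr4:109802000-109802249 on the minus strand of GRCh38.p14, is shown because CFI was called higher than untreated at 72 h and 3 days in MYCN-high cells. Capitals mark a match to the p53 decamer at -211, searched by its usual consensus, which 5.57% of promoters hold and which shows no binding.
CFI: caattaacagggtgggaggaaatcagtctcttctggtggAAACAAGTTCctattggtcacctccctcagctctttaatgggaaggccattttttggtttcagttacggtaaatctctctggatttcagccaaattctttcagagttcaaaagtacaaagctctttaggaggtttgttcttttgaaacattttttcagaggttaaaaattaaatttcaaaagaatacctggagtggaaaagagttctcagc

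Of the 9 genes, 6 have an entry in the promoter table. The upstream bases of CD46 and CD55 held no match to the 7 motifs searched, which were TTCNNNGAA, GAAANNGAA, TTGCNNAA, the E-box CACGTG (in 6.34% of promoters), the AP-1 site TGANTCA (6.57%), and the kappaB site (5.21%) and p53 decamer by name. Over its 4 starts CD59 held TTCNNNGAA, TTGCNNAA, TGANTCA and the p53 decamer. C3, C1S and SERPING1 were not searched.

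**Figure D3:**
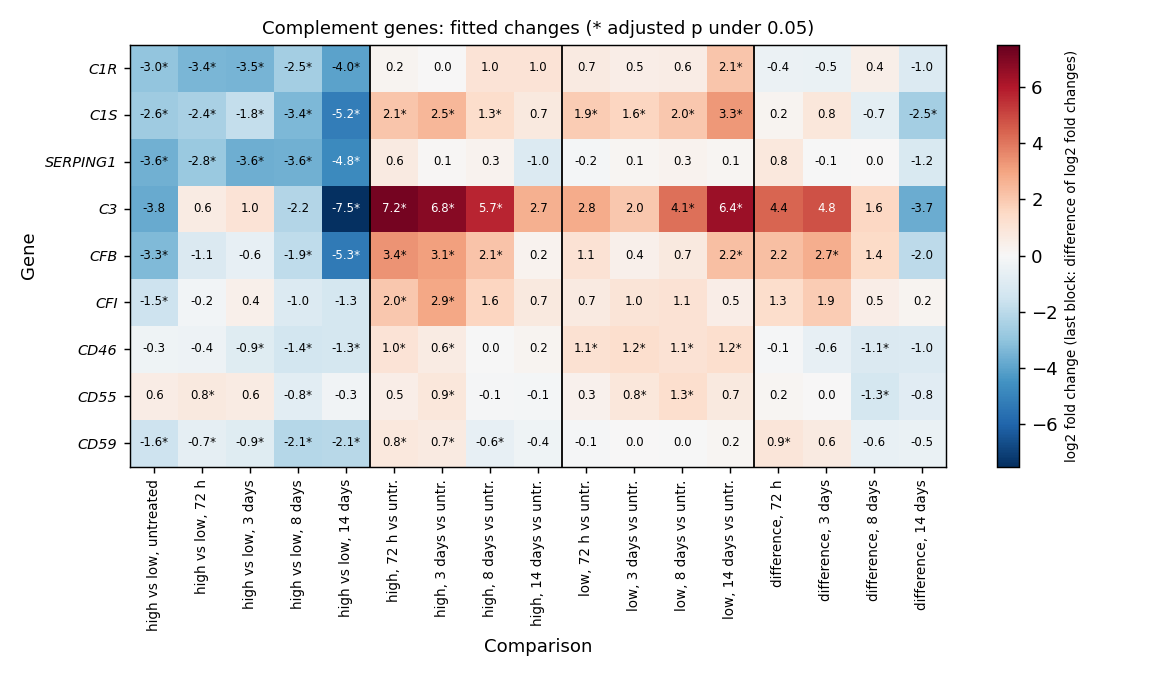
Fitted log2 fold changes of the 9 genes in 17 comparisons, with an asterisk where the adjusted p is under 0.05. The first block compares the states at the same time, the next 2 set treated against untreated cells of each state, and the last gives the MYCN-high response minus the MYCN-low response. C1R, C1S, SERPING1 and CD59 are called in all 5 comparisons of the first block, and C3 holds both extremes of the colour scale, 7.16 and -7.49.

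All 3 membrane regulators were detected in every library. CD46 is the membrane cofactor that lets factor I cut C3b. Its level in MYCN-high libraries was 92.6 and 85.9 CPM untreated, 229 and 136 CPM at 72 h, 150 and 123 CPM at 3 days, 94.9 and 80.8 CPM at 8 days, and 109 and 101 CPM at 14 days. In MYCN-low libraries it stood at 107 and 114 CPM untreated, 222 and 262 CPM at 72 h, 254 and 267 CPM at 3 days, 209 and 251 CPM at 8 days, and 261 CPM at 14 days. Untreated libraries of the states lay close together, and every treated MYCN-low library stood at 209 CPM or more. CD46 was called higher than untreated at 72 h in both states, by 1.03 ± 0.21 in MYCN-high cells (adjusted p = 0.00124) and 1.13 ± 0.21 in MYCN-low cells (adjusted p = 0.00114). In MYCN-low cells the later rises were 1.24 ± 0.21 at 3 days, 1.06 ± 0.21 at 8 days and 1.24 ± 0.24 at 14 days. In MYCN-high cells the rise was 0.61 ± 0.21 at 3 days (adjusted p = 0.0361), a call lost without any 1 of the 4 libraries, and the value was -0.02 ± 0.21 at 8 days. The responses differed at 8 days, by -1.08 ± 0.29 for MYCN-high minus MYCN-low cells (adjusted p = 0.0413), a call lost without any 1 of 7 of the 8 libraries. Untreated, the states differed by -0.31 ± 0.21, which was not called. MYCN-high cells were lower at 3 days (-0.93 ± 0.21, which became 0.97 under ERCC scaling), 8 days (-1.39 ± 0.21) and 14 days (-1.32 ± 0.24).

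CD55, or decay-accelerating factor, takes C3-splitting enzymes apart. In MYCN-high libraries it stood at 80.2 and 55.6 CPM untreated, 88.6 and 105 CPM at 72 h, 104 and 142 CPM at 3 days, 80.1 and 48.6 CPM at 8 days, and 67.7 and 57.5 CPM at 14 days. MYCN-low libraries held it at 50.0 and 41.3 CPM untreated, 59.5 and 55.9 CPM at 72 h, 69.5 and 92.6 CPM at 3 days, 88.7 and 131 CPM at 8 days, and 75.9 CPM at 14 days. CD55 was called higher in MYCN-high cells at 72 h, by 0.75 ± 0.26 (adjusted p = 0.0439), a call lost without any 1 of the 4 libraries. At 8 days it was called lower in MYCN-high cells, by -0.77 ± 0.26 (adjusted p = 0.0273), which became 0.17 under ERCC scaling and was lost without library C of either state. The responses differed at 8 days, by -1.34 ± 0.37 for MYCN-high minus MYCN-low cells (adjusted p = 0.0449), a call lost without any 1 of 5 of the 8 libraries. Against untreated cells CD55 was called higher at 3 days in MYCN-high cells (0.86 ± 0.26, adjusted p = 0.0225) and at 3 and 8 days in MYCN-low cells (0.83 ± 0.27, adjusted p = 0.0345, and 1.26 ± 0.27, adjusted p = 0.00311). In both states the call at 3 days was lost without library C of that time, and without untreated library C, and in MYCN-low cells also without untreated library B (0.97, adjusted p = 0.0609).

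CD59 blocks the last step, in which C9 inserts into the membrane. MYCN-high libraries held it at 265 and 214 CPM untreated, 470 and 368 CPM at 72 h, 407 and 364 CPM at 3 days, 167 and 146 CPM at 8 days, and 188 and 188 CPM at 14 days. MYCN-low libraries had 627 and 797 CPM untreated, 620 and 726 CPM at 72 h, 738 and 727 CPM at 3 days, 669 and 712 CPM at 8 days, and 799 CPM at 14 days. The MYCN-low course was flat within the spread of its replicates, and every MYCN-high library lay below it. MYCN-high cells were lower at all 5 times, by -1.57 ± 0.18 untreated (adjusted p = 3.04e-05), -0.68 ± 0.18 at 72 h, -0.93 ± 0.18 at 3 days, -2.14 ± 0.18 at 8 days and -2.08 ± 0.21 at 14 days, and the values at 72 h and 3 days became 1.96 and 0.92 under ERCC scaling. The call at 72 h was lost without library C of either state. In MYCN-high cells CD59 was called higher than untreated at 72 h (0.81 ± 0.18, adjusted p = 0.00221) and 3 days (0.69 ± 0.18, adjusted p = 0.00789), a call at 3 days lost without untreated library C or library B at 3 days. At 8 days it was called lower (-0.61 ± 0.18, adjusted p = 0.0442), which became 0.49 under ERCC scaling. In MYCN-low cells no time was called, with log2 changes of -0.08 to 0.17 and standard errors of 0.17 to 0.21. The responses differed at 72 h, by 0.89 ± 0.25 (adjusted p = 0.0337), a call lost without any 1 of 4 of the 8 libraries.

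Per kilobase of exon, levels can be set roughly beside each other between genes. The length is the union of a gene's exons in GENCODE 29. The annotation used for counting is not given and the transcripts expressed are not known, so the order of close values is uncertain. In untreated MYCN-high cells CD59 (29.1 CPM per kb), CD46 (26.5) and CFI (23) led, and C3 came last at 0.0224 CPM per kb. In MYCN-high cells at 3 days CFI led at 171 CPM per kb, above CD59 at 47 CPM per kb. In the MYCN-low library at 14 days CD59 (97.3 CPM per kb), CFI (95.3) and CD46 (77.4) led, C1S stood at 61.9, C3 at 27.6, C1R at 24.6 and CFB at 12.4 CPM per kb, and SERPING1 came last at 2.15 CPM per kb. In that library the transcript of C1 inhibitor thus stood below those of the proteases it inactivates, and those of factor I and its membrane cofactor CD46 above that of C3.

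Ordered by mean level over the 10 groups, untreated MYCN-high cells were lowest for C3, C1R, C1S, CFB and CFI. For C3 the next group up was MYCN-high at 14 days (mean 0.78 CPM), which did not overlap it, while the 5 groups from MYCN-low at 3 days up to MYCN-low at 8 days each overlapped the group below. For C1S only 2 neighbours overlapped, MYCN-low at 72 h with 3 days and MYCN-low at 8 days with 72 h. For CD55 all groups from the third up overlapped the one below.

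Library C lay above library B at 72 h, 3 days and 8 days alike in MYCN-low cells for C3, C1R, C1S, CFB, CFI, SERPING1 and CD46, and at 2 of the 3 times for CD55 and CD59. The deposited table holds no library C of MYCN-low cells at 14 days, so the level of that group is the value of 1 culture.

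Of 52 other complement genes, 21 were tested. C1QA, C1QC, C4A and C4B had no count in any library and C1QB had at most 4, so transcripts of the C1q subunits that hold C1r and C1s, and of the C4 that C1s cleaves, were at or near 0. C4A and C4B are near-identical copies whose reads counting can drop, so their 0 is uncertain. Of the 21, 1 was called higher and 4 lower in untreated MYCN-high than MYCN-low cells, where 35.1% of all genes were called. At 72 h against untreated 6 were called higher and 1 lower in MYCN-high cells, against 36.2% of all genes, and 3 higher and 1 lower in MYCN-low cells, against 22.3%. At 14 days 3 were called higher than untreated in MYCN-low cells, against 18.4%. With both directions counted, none of these 4 counts exceeds the share over all genes. Of all genes, 18.3% were called higher at 72 h in MYCN-high cells and 10.2% in MYCN-low cells. At 14 days 7.63% were called higher in MYCN-low cells. The counts called higher exceed each of these shares. Untreated, the count called higher lay below its share of 16.5%, and the count called lower was near its share of 18.6%. At 72 h the counts called lower lay below their shares of 17.9% and 12.1%. Of the 57 called differences of these genes, 4 changed sign under ERCC scaling. None did relative to its median, a step that largely removes the scaling and so is no check against it.

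C1RL, a C1r-like protease gene beside C1R, rose at 72 h in both states (2.14 ± 0.39 in MYCN-high and 1.06 ± 0.37 in MYCN-low cells), although C1R was not called in either. PROS1, the gene of protein S, which circulates bound to the complement regulator C4b-binding protein, stood at 135 and 106 CPM in MYCN-high cells at 72 h, against 56.6 and 51.5 CPM untreated, a rise of 1.15 ± 0.25. C3AR1, the receptor of the C3a fragment, stood at 3.22 and 3.21 CPM in MYCN-high cells at 72 h, against 0.244 and 0.0925 CPM untreated, a rise of 4.22 ± 0.88 (adjusted p = 0.00157).

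Other members of the cascade moved otherwise. C5, the source of the terminal complex, stood at 2.71 and 2.20 CPM in MYCN-high cells at 72 h, against 7.46 and 7.03 CPM untreated, a log2 fold change of -1.56 ± 0.28 that became 0.90 under ERCC scaling. C7, a part of the terminal complex, stood at 6.74 and 10.4 CPM in MYCN-high cells at 8 days and had no count untreated. C1QBP, a mitochondrial protein first found by its binding to C1q, was called higher in MYCN-high cells at all 5 times, at 656 to 1040 CPM over MYCN-high libraries and 169 to 298 CPM over MYCN-low libraries, with log2 fold changes of 1.64 ± 0.22 to 2.37 ± 0.30.

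**Figure D4:**
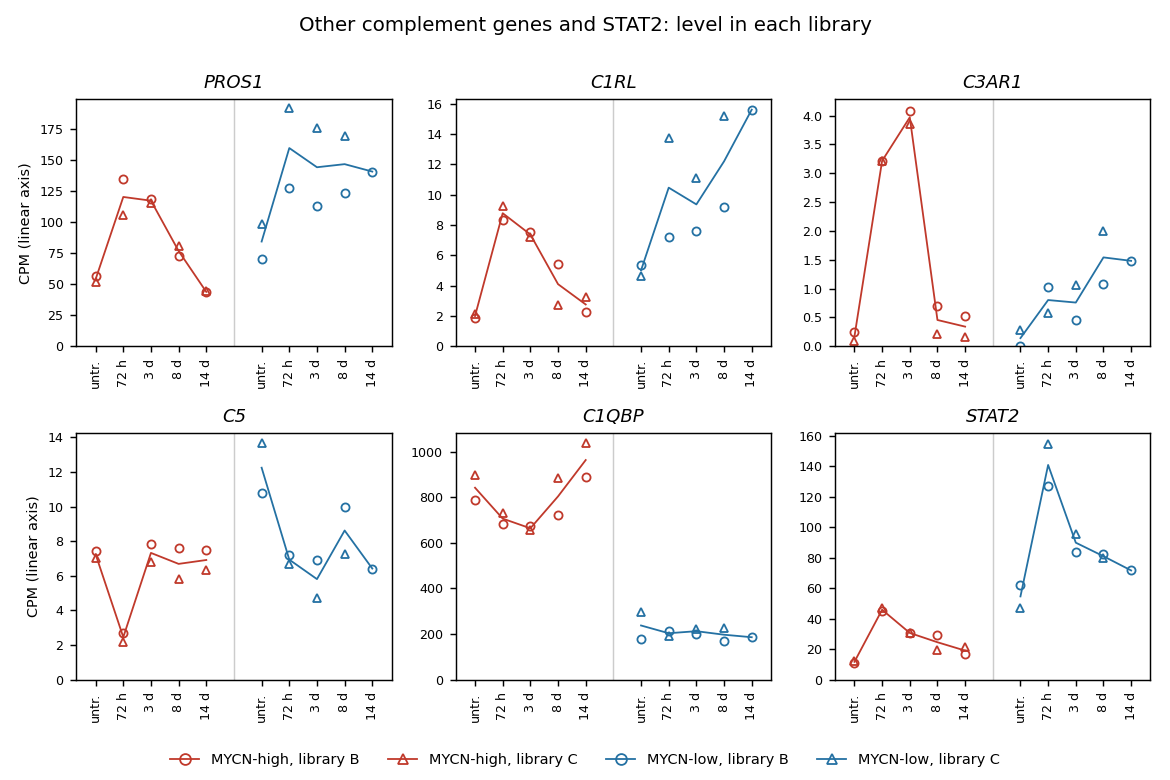
Level of 5 other complement genes and of STAT2 in every library, in CPM on linear axes from 0 that differ between panels, with MYCN-high cells on the left and MYCN-low cells on the right. Lines join group means, circles are library B and triangles library C, MYCN-low cells at 14 days are 1 library, and C3AR1 reaches 4.08 CPM at 3 days in MYCN-high cells and 2.00 CPM at 8 days in MYCN-low cells.

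Of 29 genes for factors, cytokines and receptors known to raise transcription of C3, CFB or the C1 genes, 26 were tested. In MYCN-high against MYCN-low cells 15 were called untreated, all lower, where 35.1% of all genes were called. At 72 h 7 were lower and 4 higher, against 29.9% of all genes, and at 3 days 11 lower and 1 higher, against 31.8%. At 8 days 19 were called, all lower, against 43.9%, and at 14 days 20 lower and 1 higher, against 41.8%. The shares in this paragraph count both directions. Of all genes, 18.6% were called lower untreated, 14.4% at 72 h, 14.8% at 3 days, 20.5% at 8 days and 20.5% at 14 days. At 72 h against untreated cells 18.3% of all genes were called higher in MYCN-high cells and 10.2% in MYCN-low cells. At 72 h against untreated cells 15 were called higher and 0 lower in MYCN-high cells, against 36.2% of all genes, and 6 higher and 3 lower in MYCN-low cells, against 22.3%. The 3 called lower were NFKB2 (-1.65 ± 0.36) and RELB (-1.58 ± 0.34), both NF-kappaB subunit genes that were called higher in MYCN-high cells (1.49 ± 0.36 and 1.91 ± 0.35), and IL6R (-1.36 ± 0.31), the interleukin 6 receptor gene. Their responses differed between the states by 3.15 ± 0.51 for NFKB2, 3.49 ± 0.49 for RELB and 1.68 ± 0.44 for IL6R (adjusted p = 0.00305, 0.00179 and 0.0252). Of 160 called differences of these genes, 18 changed sign under ERCC scaling. None did relative to its median, a step that largely removes the scaling and so is no check against it. Their median log2 fold change between the states was -1.11 untreated, against -0.044 over all genes tested. STAT2, which carries interferon signals with IRF9, stood at 44.8 and 47.0 CPM in MYCN-high cells at 72 h, against 11.0 and 12.4 CPM untreated (1.97 ± 0.21). LIF, a cytokine of the interleukin 6 family, stood at 21.7 and 19.7 CPM in MYCN-high cells at 72 h, against 4.68 and 1.99 CPM untreated (2.64 ± 0.43). The single MYCN-low library at 14 days, where C3, CFB, C1R and C1S were highest, also had the highest levels of 3 cytokines. IL1B stood at 52.5 CPM there and had no count in either MYCN-high library at 14 days, IL6 stood at 36.2 CPM, against 0 and 0.302 CPM, and LIF at 80.4 CPM, against 2.22 and 1.61 CPM. Their part in the complement levels was not tested.

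RPPH1 and RMRP, both structured RNAs, were the 2 of 10 listed RNA-quality genes with a row in the table. Their share of counts was 0.501 and 0.644% in MYCN-high cells at 72 h, against 0.236 and 0.264% untreated, and ranged from 0.212 to 0.644% over all libraries. Its part in the changes at 72 h was not tested.

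As a description over the 10 group means, which share libraries and scaling, C1S had a Pearson r of 0.93 with CFB and 0.88 with C1R, C3 one of 0.88 with CFB, and C1R one of 0.91 with SERPING1. CD55 ran apart, with -0.21 against C1R. Among all tested genes of at least 5 CPM, the 3 most like C3 were FTH1 (r = 0.946), FGD6 and TPBG (0.942 each). Those most like C1S were SYT11 (0.987), C7orf25 (0.986) and LHFPL2 (0.982), and those most like C1R were BIRC2 (0.98), BTN2A1 (0.976) and TCEAL1 (0.967). CFB was most like GM2A (0.97), CLIP3 (0.967) and HLA-H (0.966), the last a pseudogene that can share reads with other HLA genes. CFI was most like MBD5 (0.964), DLG4 and C14orf101 (0.959 each), and SERPING1 most like ITGB3 (0.991), ARHGAP31 (0.989) and PRICKLE2 (0.988). CD46 was most like FAM174A (0.99), OSTM1 (0.985) and ADAM17 (0.982), CD55 like SLC37A3 (0.911) and PERP (0.9), and CD59 most like CCDC71L (0.993), TIMP2 (0.988) and TFE3 (0.986).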

How the data were processed

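Per the labels' protocols, ERCC spike-in RNA was added to each RNA sample, ribosomal RNA was removed with the RiboGold kit, and libraries were made with the ScriptSeq kit. The labels' molecule field instead gives polyA RNA, and which selection was used bears on the shares of structured RNAs. The submitters' processing notes name STAR 2.4.0h1, HTSeq and hg19, and the annotation and strand setting are not given in the sources used here. The deposited table holds raw counts per gene for 19 libraries, with 92 ERCC rows that were kept out of library sizes and tests. Counts were fitted with edgeR 4.0.16 in R 4.3.3, with TMM scaling, a filter on low counts (14793 genes left), 1 term per group and 9 residual degrees of freedom. Tests were two-sided quasi-likelihood tests of 17 contrasts, adjusted by Benjamini-Hochberg over all genes tested, with a threshold of 0.05. Standard errors are the log2 fold change over the root of F, and p-values measure the spread between these libraries. The fit was tested on simulated data. The 9 genes and the lists were chosen with earlier results of these data known. All 9 genes, called list genes of at least 1 CPM and the 3 genes most like each member were named, except for a few items that are not reported here. Exon lengths are from GENCODE 29, promoters from RefSeq on GRCh38.p14. Alternatives were DESeq2 1.42.0, its size factors, ERCC scaling, no filter, a library-letter block and leaving out each library.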

Additional observations from a re-analysis of the deposited data

Results flagged for a closer look

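There were 5 differences between the responses of MYCN-high and MYCN-low cells that passed the direct test, each given as MYCN-high minus MYCN-low on the log2 scale. CD59 differed by 0.89 at 72 h, where it was called higher in MYCN-high cells and not called in MYCN-low cells. CFB differed by 2.71 at 3 days, CD46 by -1.08 and CD55 by -1.34 at 8 days, and C1S by -2.54 at 14 days, the last with 1 MYCN-low library. Leaving out single libraries ended the first 4 calls in at least 4 fits each and did not end that of C1S in any of the fits run.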

How the results depend on the processing

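Of the 66 called differences of the 9 genes, DESeq2's size factors, its Wald test, no filter on low counts and the library-letter block ended none. Leaving out 1 library, where a lone library left in a group is assumed to vary like the others, ended 19 in at least 1 fit. ERCC scaling left 3 called, and replicates differed widely in their ERCC share (0.0116 and 0.191% in MYCN-high cells at 72 h). Under it the counts of genes called between the states were 0 untreated, 0 at 72 h, 0 at 3 days, 0 at 8 days and 1 at 14 days, where 0, 5, 4, 0 and 31 of the 14793 genes tested were called at these 5 times. Against untreated cells they were 1 at 72 h, 1 at 3 days, 0 at 8 days and 0 at 14 days in MYCN-high cells and 0 at 72 h, 0 at 3 days, 0 at 8 days and 0 at 14 days in MYCN-low cells, with 0 differences between the responses at any of the 4 times. Log2 fold changes of MYCN-high over MYCN-low cells that changed sign under it were those of C1S (0.25), CFB (1.49) and CD59 (1.96) at 72 h, of C1S (0.30), CD46 (0.97) and CD59 (0.92) at 3 days and of CD55 (0.17) at 8 days. Against untreated MYCN-high cells CD59 at 8 days became 0.49 and C1R at 14 days -0.055.

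With no filter on low counts, C3 was also called between the states untreated, at 3 days and at 8 days, CFB at 72 h, and CFI at 8 and 14 days, as were C1R and CFI at 8 days against untreated in MYCN-high cells and CFI at 8 days in MYCN-low cells. With no filter 2 genes were called at 14 days against untreated in MYCN-high cells, where 309 of all genes were called. In MYCN-low cells 5 were called at 72 h and 5 at 3 days, against 3780 and 3899 of all genes. That setting called 4 differences between the responses at 72 h, 3 at 3 days and 4 at 14 days. It called 2627, 2079 and 1973 of all genes at these times. DESeq2's Wald test called 3 such differences at 72 h, 2 at 3 days and 2 at 14 days. Over all genes that test called 2418, 1786 and 1761. With the library letter as a replicate block, 2 differences between the responses were called at 72 h and 2 at 3 days, where 1882 and 1332 of all genes were called. With that block CFI was also called lower in MYCN-high than MYCN-low cells at 8 and 14 days (adjusted p = 0.0373 and 0.0026), and higher than untreated at 8 days in MYCN-high cells (1.60, adjusted p = 0.00787) and in MYCN-low cells (1.09, adjusted p = 0.0254). CFI was the second of the responses called apart at 3 days (1.91, adjusted p = 0.0206). The correlation of the difference between libraries B and C was -0.21 to 0.32 over 36 pairs of groups, with a median of 0.11 and 22 over 0.1, so the letters were not taken to pair the samples, and a pairing of some of them cannot be told from these values. The causes were not tested.

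With 1 library left out, between 5 and 6 genes were called between the states untreated, 3 and 4 at 72 h, 5 and 9 at 8 days and 7 and 8 at 14 days, with 5 at 3 days throughout. Against untreated MYCN-high cells between 4 and 6 were called at 3 days, 0 at 8 days and 0 at 14 days, and 6 at 72 h throughout. Against untreated MYCN-low cells between 2 and 3 were called at 72 h, 2 and 3 at 3 days and 3 and 4 at 8 days, and 5 at 14 days. Differences between the responses numbered 0 to 2 at 72 h, 0 to 1 at 3 days, 0 to 3 at 8 days and 1 at 14 days. C3 between the states at 8 days ran from -3.17 to 1.06, the higher value without MYCN-low library C. The 14-day MYCN-low library could not be left out. Depth limits C3 and SERPING1 in MYCN-high cells most.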
